A study of Mus musculus with 30 samples.

Results

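Periostin (Postn), the cartilage intermediate layer protein gene Cilp and 8 other genes of secreted matrix proteins were examined by RNA-seq in 4 tissues of Mtm1-/y and wild-type (WT) mice. The 10 genes were chosen by name from the 36103 genes counted, and Postn and Cilp were picked because both rose in gastrocnemius and diaphragm. Their changes in those 2 muscles are therefore given as a description with no test, while the other 8 genes, Tnc, Thbs1, Thbs2, Thbs4, Spp1, Sparc, Fn1 and Comp, were tested in every tissue. All 10 were named with earlier results of these data known, so counts among the 8 beside shares of all genes are a description. Mtm1 encodes myotubularin, a lipid phosphatase of endosomes, and its loss causes X-linked myotubular myopathy. Gastrocnemius, diaphragm, heart and liver were taken at 5 weeks from males on the 129Pas background, and the WT mice were littermates. The Mtm1-/y mice carried the deletion in the whole body and no other allele or treatment. WT gastrocnemius, diaphragm and heart had 4 libraries each and WT liver 3. Mtm1-/y gastrocnemius, heart and liver had 4 libraries each and Mtm1-/y diaphragm 3, numbered 1, 2 and 4.

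Matricellular proteins are secreted into the extracellular matrix, where they modulate how cells bind collagen and respond to growth factors rather than bearing load. Most are made by fibroblasts, tendon cells, smooth muscle or macrophages and act through integrins and other surface receptors. Many, though not all, are low in adult muscle and are known to be induced during repair, regeneration and fibrosis. Whole tissue was sequenced, so a change in the number of cells of a type and a change in RNA per cell cannot be told apart.

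Libraries held 24873817 to 44289343 counts assigned to genes. Levels are given as CPM, counts relative to library size, scaled by the trimmed mean of M-values (TMM) over all 30 libraries. Mtm1 was 15.9 to 26.9 CPM in WT libraries and 3.49 to 8.19 CPM in Mtm1-/y libraries. The defining markers of each tissue were high in it, with 5 skeletal fibre markers summing to 38333 to 57331 CPM in WT diaphragm and 8 hepatocyte markers to 174478 to 223007 CPM in liver. Hepatocyte markers also summed to 420 to 34229 CPM in WT diaphragm and 739 to 44074 CPM in Mtm1-/y diaphragm. WT gastrocnemius 3 stood apart from its group in 6 of the 10 genes, and Mtm1-/y liver 3 stood apart in 3.

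Promoter sequence was looked up for Postn, Cilp, Tnc and Thbs4, which had the highest fitted changes of the 10 genes in the diaphragm. RefSeq windows (GRCm38.p6, the build of the counts) were matched for 7 of the 10 genes, Thbs1, Fn1 and Comp having no entry, and 250 bases upstream of the start are printed for these 4. Capitals mark the exact TATA box letters TATAAA, the AP-1 motif TGANTCA, the TEAD motif CATTCC, the E-box CANNTG and the CArG box, each searched on both strands. The SMAD motif CAGAC and the Sp1 motif GGGCGG were also searched on both strands but are not marked. Other forms of the TATA box, such as tatataa in the Cilp window, were not searched and are not marked. The Postn window covers chr3:54360857-54361106 (+), the Cilp window chr9:65264930-65265179 (+), the Tnc window chr4:64047016-64047265 (-) and the Thbs4 window chr13:92794819-92795068 (-). None lies over another gene's annotated span except that of Tnc, which 8030451A03Rik covers.
Postn: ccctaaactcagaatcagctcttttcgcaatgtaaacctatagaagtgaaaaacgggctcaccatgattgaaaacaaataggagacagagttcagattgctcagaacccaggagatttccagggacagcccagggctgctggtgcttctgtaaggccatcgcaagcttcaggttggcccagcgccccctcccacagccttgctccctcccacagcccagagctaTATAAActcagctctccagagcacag
Cilp: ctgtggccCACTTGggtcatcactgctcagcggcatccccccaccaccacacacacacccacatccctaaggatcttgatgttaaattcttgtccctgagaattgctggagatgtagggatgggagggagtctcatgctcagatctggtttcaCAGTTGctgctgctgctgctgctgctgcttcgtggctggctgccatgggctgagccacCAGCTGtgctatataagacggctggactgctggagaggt
Tnc: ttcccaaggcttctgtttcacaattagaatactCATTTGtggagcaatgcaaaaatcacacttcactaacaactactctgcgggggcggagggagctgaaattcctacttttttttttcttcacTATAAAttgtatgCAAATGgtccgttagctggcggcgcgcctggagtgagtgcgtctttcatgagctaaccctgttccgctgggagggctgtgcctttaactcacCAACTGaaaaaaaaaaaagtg
Thbs4: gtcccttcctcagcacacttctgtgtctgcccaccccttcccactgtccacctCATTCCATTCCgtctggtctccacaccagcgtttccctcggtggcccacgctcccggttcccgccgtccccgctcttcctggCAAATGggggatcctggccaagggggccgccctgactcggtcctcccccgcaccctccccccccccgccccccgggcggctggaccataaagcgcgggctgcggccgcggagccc
The Postn window held TATAAA at -26 to -21 from the start, and the Tnc window held it at -126 to -121. Postn and Tnc had another listed start, and the window nearer the annotated gene start is the one printed. The other Postn window (chr3:54359017-54359266) held no TATAAA, and the other Tnc window held it at -205 to -200. The Thbs4 window held CATTCC at -197 and -192, the copies sharing a base. On either strand, it also held CAGAC at -226 and -186 and GGGCGG at -89, -51 and -42. The printed Tnc window held GGGCGG at -167, and the printed Postn and Cilp windows held neither. Of the windows not printed, that of Postn held CAGAC at -191 and that of Tnc CAGAC at -70 and GGGCGG at -246. Of the motifs searched, the Cilp window held only E-boxes, at -242, -97 and -39, and none of the 4 windows held TGANTCA or a CArG box. Of all 32851 promoter windows, 12.4% held TATAAA, 12.6% CATTCC, 6.75% TGANTCA, 1.47% a CArG box and 66.2% an E-box. CAGAC was in 42.2% of them and GGGCGG in 32.7%. A match describes these letters alone, and the 4 windows shared none of these motifs: Postn held only TATAAA and Cilp only E-boxes.

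In WT mice the genes fell into a muscle group and a liver group. Liver was the lowest tissue for 8 of the 10 genes and the highest for Spp1 and Fn1. Over neighbouring tissues in each gene's order, 16 of 30 pairs differed (edgeR quasi-likelihood test, adjusted p under 0.05), 9 of 10 pairs with liver and 7 of 20 without it. Between WT tissues 51.7% (diaphragm, heart), 54.4% (gastrocnemius, diaphragm), 61.3% (gastrocnemius, heart), 76.1% (diaphragm, liver), 76.4% (heart, liver) and 79.5% (gastrocnemius, liver) of all 17725 genes passed the same test. These shares are for fixed pairs of tissues. The 30 pairs were neighbours in the order of each gene's own means, so their counts are not comparable with the shares.

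Postn was highest in WT heart at 93.8 CPM ± 46.6 (SD, n = 4), followed by diaphragm at 44.7 ± 8.996, gastrocnemius at 39.9 ± 18.7 and liver at 10.5 ± 1.89 (n = 3). Heart exceeded diaphragm by 1.07 on the log2 scale (SE 0.34, adjusted p = 0.018), a call lost without heart WT 4 (adjusted p = 0.10), diaphragm WT 1 (0.053) or diaphragm WT 2 (0.054). Diaphragm and gastrocnemius did not differ beyond their spread. Cilp was instead lower in heart than in both skeletal muscles. It was 62.6 CPM ± 29.7 in diaphragm and 44.8 ± 17.2 in gastrocnemius, against 8.05 ± 1.21 in heart and 0.478 ± 0.245 in liver. Gastrocnemius exceeded heart 5.71-fold (adjusted p = 1.5e-05) and heart exceeded liver 17.3-fold (adjusted p = 2.4e-06).

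Thbs4, a thrombospondin of tendon and the myotendinous junction, fell stepwise from gastrocnemius at 174 CPM ± 111 to diaphragm at 53.5 ± 28.0 and heart at 8.27 ± 3.23, and every step passed (adjusted p = 0.0036 and 2.2e-04). In WT liver it had 2 counts in all, and heart was 312-fold higher with a counting interval of 86.3 to 2583 (95%). Comp, a cartilage and tendon relative of Thbs4, had 0 counts in WT liver and was at least 140-fold higher in diaphragm, taking 3 counts over the group as the floor. Neither neighbouring step in its order of gastrocnemius, heart and diaphragm passed, although gastrocnemius exceeded heart without heart WT 4 (log2 difference 1.80, adjusted p = 0.040). A comparison of Comp in gastrocnemius and diaphragm is not reported here. Tnc, a glycoprotein of embryonic and healing matrix and of tendon, was 17.4 CPM ± 12.5 in gastrocnemius and 6.49 ± 2.86 in diaphragm (adjusted p = 0.0062), with lower means of 3.47 in heart and 1.85 in liver. Those last steps passed only without gastrocnemius WT 3 (adjusted p = 0.011 for each) or, for diaphragm against heart, without diaphragm WT 1 (0.024).

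Thbs1, which activates latent TGF-beta, and Thbs2, known to restrain vessel growth, did not differ between neighbouring muscles by edgeR (adjusted p = 0.11 to 0.55). A comparison of their highest and lowest muscles is not reported here. Thbs1 means ran from 22.3 CPM in heart to 48.1 in diaphragm and Thbs2 means from 20.4 in diaphragm to 35.7 in heart, with liver at 2.67 and 2.82. Without gastrocnemius WT 3, diaphragm exceeded gastrocnemius for Thbs1 (adjusted p = 0.0019) and heart exceeded gastrocnemius for Thbs2 (0.0042). Sparc, a collagen-binding counter-adhesive protein, was 1404, 1057 and 1018 CPM in gastrocnemius, diaphragm and heart and 235 in liver. Its gastrocnemius and diaphragm levels did not differ beyond the spread by edgeR (adjusted p = 0.074), but did by DESeq2 (0.033) and without gastrocnemius WT 4 (0.047).

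Fn1, the fibronectin gene, was 2477 CPM ± 153 in liver, the source of plasma fibronectin, and 827 ± 355 in diaphragm, 185 ± 72.2 in heart and 142 ± 48.0 in gastrocnemius. Spp1, the gene of osteopontin, was 45.8 CPM ± 6.68 in liver, 9.98 ± 6.12 in diaphragm, 5.28 ± 2.60 in gastrocnemius and 1.07 ± 0.432 in heart. Diaphragm thus had the next highest mean after liver for both. For Spp1 it did not exceed gastrocnemius beyond the spread by edgeR (log2 difference 0.89, adjusted p = 0.14). The WT diaphragm library with the lowest hepatocyte markers, replicate 3, was also the lowest of its group for both genes, at 400 CPM for Fn1 and 2.15 CPM for Spp1. Without it the diaphragm exceeded the gastrocnemius for Spp1 (log2 difference 1.31, adjusted p = 0.0051). The WT diaphragm libraries left in that fit had 23261 to 34229 CPM of hepatocyte markers.

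Per kilobase of exon, Sparc was the most abundant of the 10 transcripts in WT gastrocnemius, diaphragm and heart, at 371 ± 127, 279 ± 43.8 and 269 ± 25.2 CPM per kb, and Fn1 in liver at 212 ± 13.1. In gastrocnemius Thbs4 came next at 53.0 ± 33.7 CPM per kb, while Postn at 4.59 ± 2.15 and Tnc at 2.24 ± 1.61 were among the lowest.

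**Figure D1:**
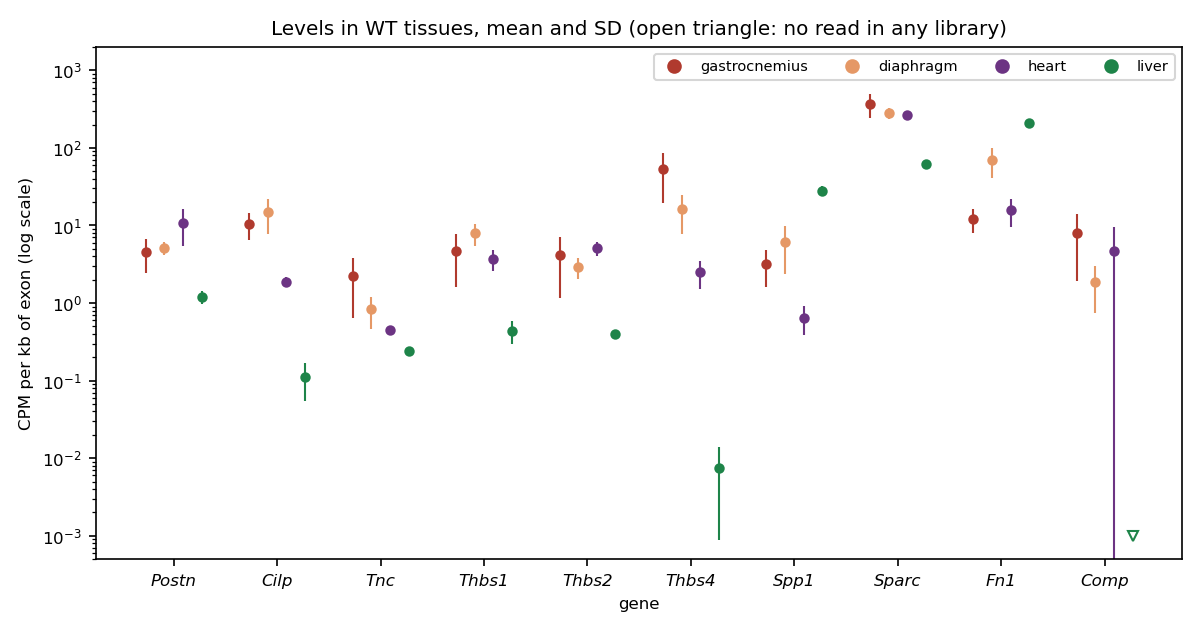
Mean level of each gene in WT gastrocnemius, diaphragm, heart (n = 4 each) and liver (n = 3), in CPM per kb of exon on a log scale, with SD bars that run to the foot of the axis where the SD exceeds the mean (Comp in heart). Liver was lowest for 8 genes and highest for Spp1 and Fn1, and the triangle marks Comp, which had no count in WT liver.

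In both skeletal muscles, every Mtm1-/y library had more Postn and more Cilp than every WT library. Postn is secreted by fibroblasts, binds integrins and collagen and is known as a target of TGF-beta. In gastrocnemius it was 30.4, 33.8, 67.7 and 27.7 CPM in WT replicates 1 to 4 and 392, 170, 332 and 288 CPM in Mtm1-/y replicates 1 to 4. The lowest Mtm1-/y library was far above the highest WT library, and the fitted log2 fold change was 2.90. In diaphragm Postn was 41.5, 34.6, 56.0 and 46.7 CPM in WT and 609, 130 and 1003 CPM in Mtm1-/y replicates 1, 2 and 4. Again the groups did not overlap, the fitted log2 fold change being 3.71, but Mtm1-/y replicate 2 was far below the other two.

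Cilp encodes a matrix protein that binds TGF-beta and IGF1 and restrains their signalling. In gastrocnemius it was 29.8, 33.7, 67.7 and 48.0 CPM in WT and 603, 405, 375 and 655 CPM in Mtm1-/y libraries, a log2 fold change of 3.52. In diaphragm it was 57.8, 40.7, 106 and 46.1 CPM in WT and 414, 121 and 364 CPM in Mtm1-/y, a log2 fold change of 2.27. Thus Cilp had the larger fitted change in gastrocnemius and Postn in diaphragm. Leaving out each library in turn kept Postn between 2.74 and 3.28 in gastrocnemius and between 3.07 and 4.18 in diaphragm, and Cilp between 3.36 and 3.79 and between 1.98 and 2.68.

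**Figure D2:**
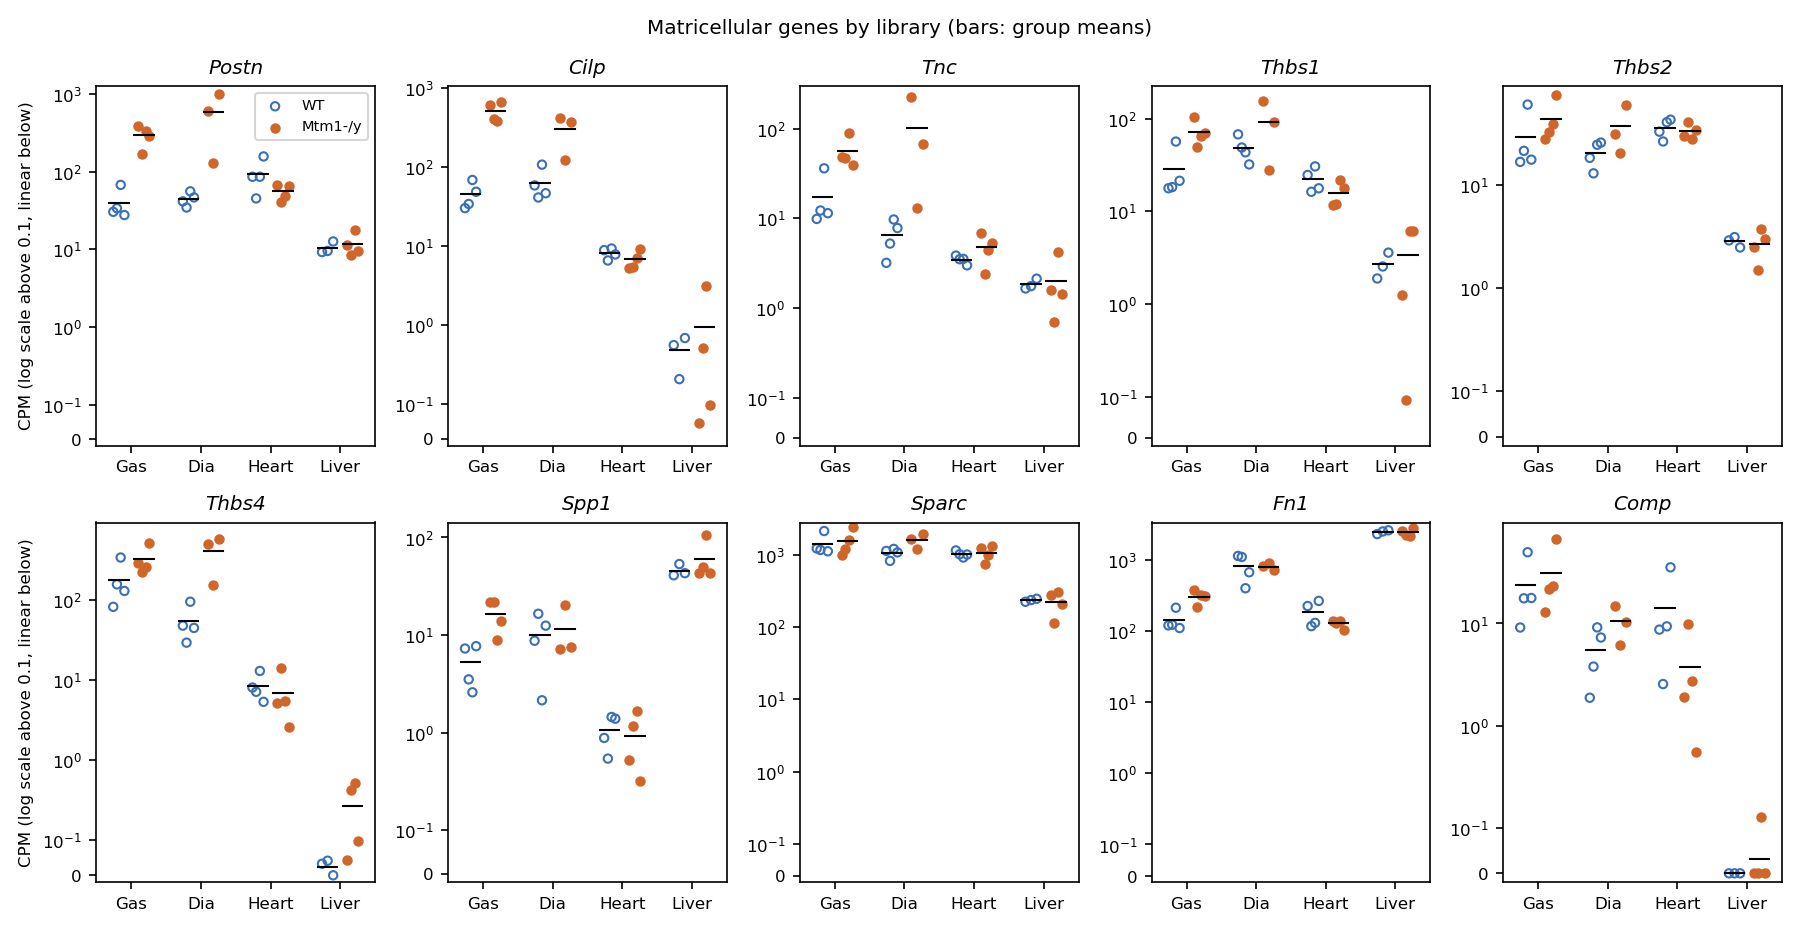
Level of each gene in every library, in CPM on a log scale above 0.1, by tissue (Gas, gastrocnemius; Dia, diaphragm) and genotype, with bars at the group means. Postn and Cilp in gastrocnemius and diaphragm do not overlap between genotypes, whereas the heart groups overlap for all 10 genes.

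The other genes were mixed in gastrocnemius: Tnc, Thbs1, Spp1 and Fn1 rose, and Thbs2, Thbs4, Sparc and Comp did not pass. That made 4 of 8 that rose and 0 that fell, by DESeq2 as well, against 14.1% of 15456 genes that rose and 14.9% that fell by edgeR, and 12.9% that rose by DESeq2. The median log2 fold change was 1.00 over the 8 genes and 0.02 over all genes. In 3 of the 8, Tnc, Spp1 and Fn1, every Mtm1-/y library exceeded every WT library, as in 13.9% of all genes.

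Tnc was 9.85, 12.2, 36.0 and 11.4 CPM in WT and 48.0, 46.6, 88.1 and 39.5 CPM in Mtm1-/y gastrocnemius, with a fitted log2 change of 1.68 (SE 0.43, adjusted p = 0.016). WT replicate 3 came close to the lowest Mtm1-/y library. Fn1 was 120, 123, 213 and 110 CPM in WT and 373, 219, 321 and 308 CPM in Mtm1-/y, with a fitted log2 change of 1.12 (SE 0.23, adjusted p = 0.0055). Here too only WT replicate 3 approached the Mtm1-/y range.

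Spp1, which macrophages are known to secrete in injured muscle, was 7.28, 3.52, 2.59 and 7.70 CPM in WT and 21.8, 21.6, 8.995 and 14.04 CPM in Mtm1-/y. It rose by 1.66 on the log2 scale (SE 0.38, adjusted p = 0.0092). In the same libraries 9 of 9 macrophage markers rose, and their summed level was 41.9 to 73.9 CPM in WT and 103 to 154 CPM in Mtm1-/y. Within each genotype, replicate 3 had the highest macrophage sum, at 73.9 (WT) and 154 CPM (Mtm1-/y), but the lowest Spp1. Replicates 1, 2 and 4 had sums of 57.2, 41.9 and 47.5 CPM (WT) and 128, 103 and 110.5 CPM (Mtm1-/y). The part of macrophages in the Spp1 values was not tested.

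Among the thrombospondins, Thbs1 was 17.8, 18.3, 56.7 and 21.4 CPM in WT and 103, 49.3, 65.4 and 69.8 CPM in Mtm1-/y gastrocnemius. It rose by 1.34 on the log2 scale (SE 0.38, adjusted p = 0.026), but WT replicate 3 lay within the Mtm1-/y range. The call was lost without WT replicate 1, 2 or 4 or Mtm1-/y replicate 1 (adjusted p = 0.069, 0.078, 0.074 and 0.069), and when all 30 libraries were fitted together (0.11 by edgeR, 0.14 by DESeq2). Thbs4 was 81.0, 155, 334 and 128 CPM in WT and 289, 221, 258 and 502 CPM in Mtm1-/y (fitted log2 change 0.87, SE 0.41, adjusted p = 0.14). Thbs2 had a fitted change of 0.59 (SE 0.45, adjusted p = 0.35), and WT replicate 3 was at 60.1 CPM against 16.7 to 21.4 in the other WT libraries.

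WT replicate 3 decided several of these calls. Without it Thbs2 (log2 fold change 1.24, adjusted p = 0.024) and Thbs4 (1.40, 0.013) also rose, making 6 of 8, and Tnc rose by 2.33, whereas without WT replicate 2 only Spp1 and Fn1 passed, Tnc reaching adjusted p = 0.053. The summed level of 5 tenocyte markers (Scx, Tnmd, Mkx, Fmod and Kera) was 595 CPM in WT replicate 3 and 614 CPM in Mtm1-/y replicate 4, against 85.8 to 214 CPM in the other WT and 74.8 to 233 CPM in the other Mtm1-/y libraries. Comp, Thbs2, Thbs4, Sparc and Cilp were highest within each genotype in those same libraries, Comp at 49.8 and 66.7 CPM, Sparc at 2122 and 2391 CPM and Cilp at 67.7 and 655 CPM. Comp (fitted log2 change 0.41, SE 0.58, adjusted p = 0.62) and Sparc (0.15, SE 0.29, 0.74) overlapped between genotypes. Without Mtm1-/y replicate 4 their log2 fold changes turned to -0.27 and -0.14. The part of tendon in these values was not tested.

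**Figure D3:**
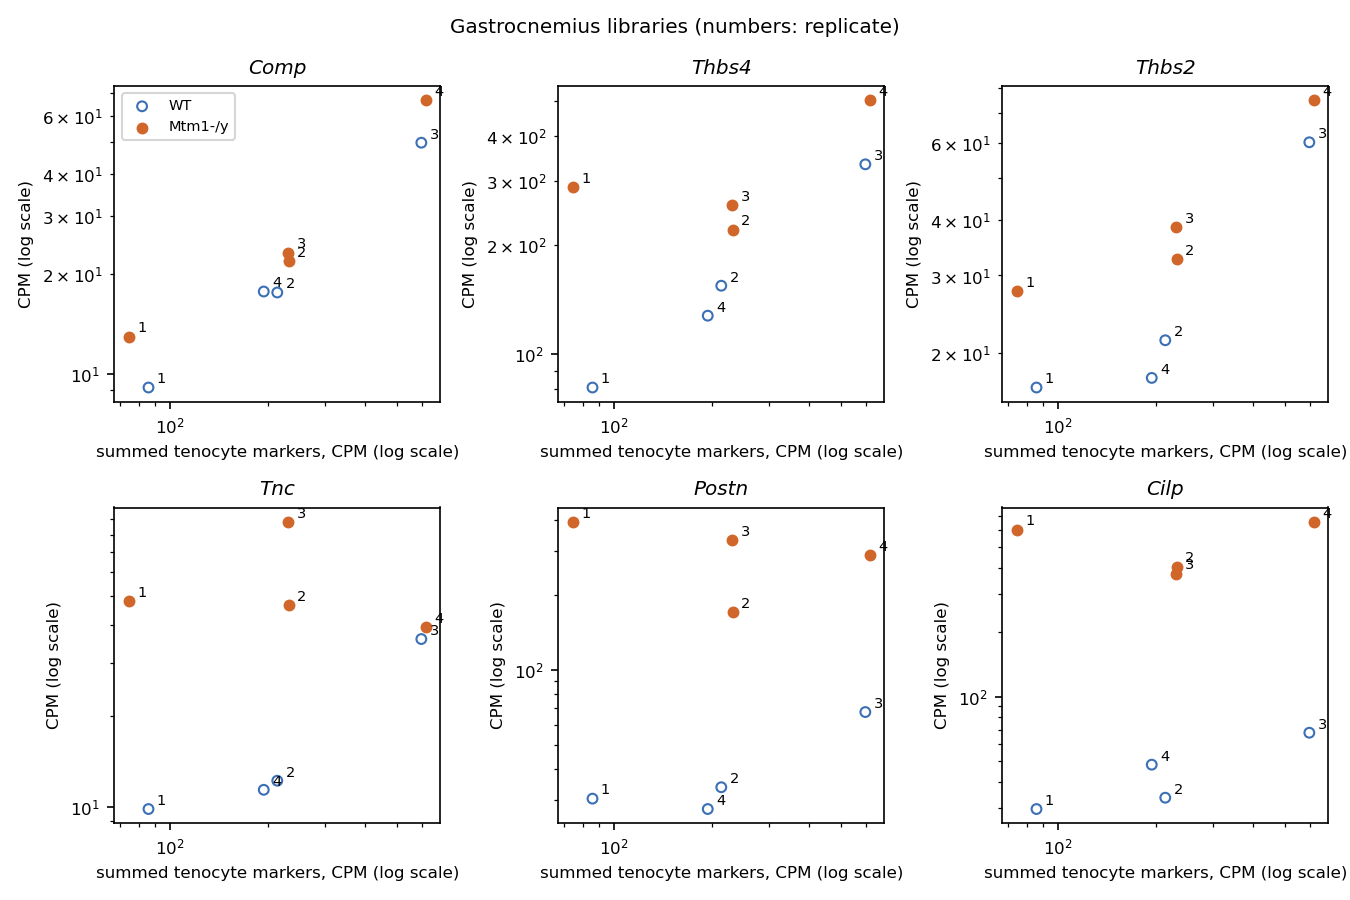
Level of 6 of the genes in CPM against the summed CPM of 5 tenocyte markers in each gastrocnemius library, both on log scales, with replicate numbers. Comp and Thbs2 are highest in WT replicate 3 and Mtm1-/y replicate 4, the libraries with 595 and 614 CPM of markers, as are Thbs4 and Cilp. Postn is highest in Mtm1-/y replicate 1 and WT replicate 3. Tnc is highest in Mtm1-/y replicate 3 and WT replicate 3, and Mtm1-/y replicate 4 is its lowest Mtm1-/y library.

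Summed fibroblast markers overlapped between genotypes in gastrocnemius. Singly, Dcn, Dpt, Pi16 and Col1a1 overlapped, whereas Pdgfra, Lum, Mfap5 and Col3a1 were higher in every Mtm1-/y library. Of 8 markers 6 rose, with a summed level of 2284 to 4985 CPM in WT and 3085 to 6490 CPM in Mtm1-/y libraries. Other cell type markers moved with genotype in the same libraries. Summed skeletal fibre markers were 170077 to 205868 CPM in WT and 105099 to 114188 CPM in Mtm1-/y, with 4 of 5 falling and 1 rising, and endothelial markers were 312 to 417 and 230 to 299 CPM, with 2 of 4 falling. Summed markers of myogenic cells and immature fibres were 61.0 to 78.7 and 162 to 376 CPM, with 3 of 5 rising and 1 falling. Of 6 white adipocyte markers 5 rose, their sums of 20.7 to 97.5 and 80.9 to 169 CPM overlapping. The part of these cells and of fibroblasts in the changes of the 10 genes was not tested.

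In diaphragm, Tnc and Thbs4 had the highest fitted changes of the 8 tested genes but did not pass by edgeR. Tnc was 3.20, 5.24, 9.71 and 7.80 CPM in WT and 223, 13.0 and 66.6 CPM in Mtm1-/y replicates 1, 2 and 4 (fitted log2 change 3.97, SE 0.89, adjusted p = 0.28). Every Mtm1-/y library was above the WT range, replicate 2 only narrowly. Thbs4 was 47.2, 28.9, 93.8 and 44.2 CPM in WT and 493.1, 151 and 565 CPM in Mtm1-/y (fitted log2 change 2.92, SE 0.56, adjusted p = 0.26). These were the 2 of 8 genes without overlap in the direction of a rise, against 4.41% of all genes.

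By edgeR 0 of the 8 genes passed in diaphragm, where 0.0119% of 16796 genes did, and 3 (Tnc, Thbs4 and Sparc) had an unadjusted p under 0.05, as 10.8% of all genes had. DESeq2 called Tnc (adjusted p = 0.0023) and Thbs4 (4.0e-06) as higher, among 1.70% of genes that rose. Without Mtm1-/y replicate 2, edgeR called both too (log2 fold changes 4.48 and 3.31, adjusted p = 0.042 and 0.043), among 0.729% of genes that rose. Without Mtm1-/y replicate 1 the fitted changes of Tnc and Thbs4 were 2.64 and 2.76 (adjusted p = 0.56 and 0.54), and neither passed.

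Sparc was 1128, 820, 1202 and 1076 CPM in WT and 1658, 1202 and 1903 CPM in Mtm1-/y diaphragm (fitted log2 change 0.61, SE 0.22, adjusted p = 0.41), replicate 2 again being the lowest. Thbs1 (0.94), Thbs2 (0.88) and Comp (0.94) overlapped between genotypes. Summed fibroblast markers were 1731 to 3451 CPM in WT and 6677, 3587 and 7067 CPM in Mtm1-/y replicates 1, 2 and 4. Replicate 2 was also the lowest Mtm1-/y library for 8 of the 10 genes and the highest for Fn1 and Spp1. Summed markers of myogenic cells and immature fibres were 24.6 to 41.6 CPM in WT and 105 to 365 CPM in Mtm1-/y. The part of these cells in the results was not tested.

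Fn1 and Spp1 did not separate by genotype in diaphragm. Fn1 was 1138, 1101, 400 and 670 CPM in WT and 811, 893 and 714 CPM in Mtm1-/y (fitted change -0.011, SE 0.36, adjusted p = 0.996). Spp1 was 8.75, 16.5, 2.15 and 12.5 CPM in WT and 7.15, 20.4 and 7.51 CPM in Mtm1-/y (fitted log2 change 0.26, SE 0.67, adjusted p = 0.96). Summed hepatocyte markers were 34229, 23261, 420 and 25852 CPM in WT replicates 1 to 4 and 2657, 44074 and 739 CPM in Mtm1-/y replicates 1, 2 and 4. Spp1 was above 8 CPM in the 4 libraries with 23261 CPM or more of these markers and below it in the other 3. The part of liver RNA in Fn1 and Spp1 was not tested.

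**Figure D4:**
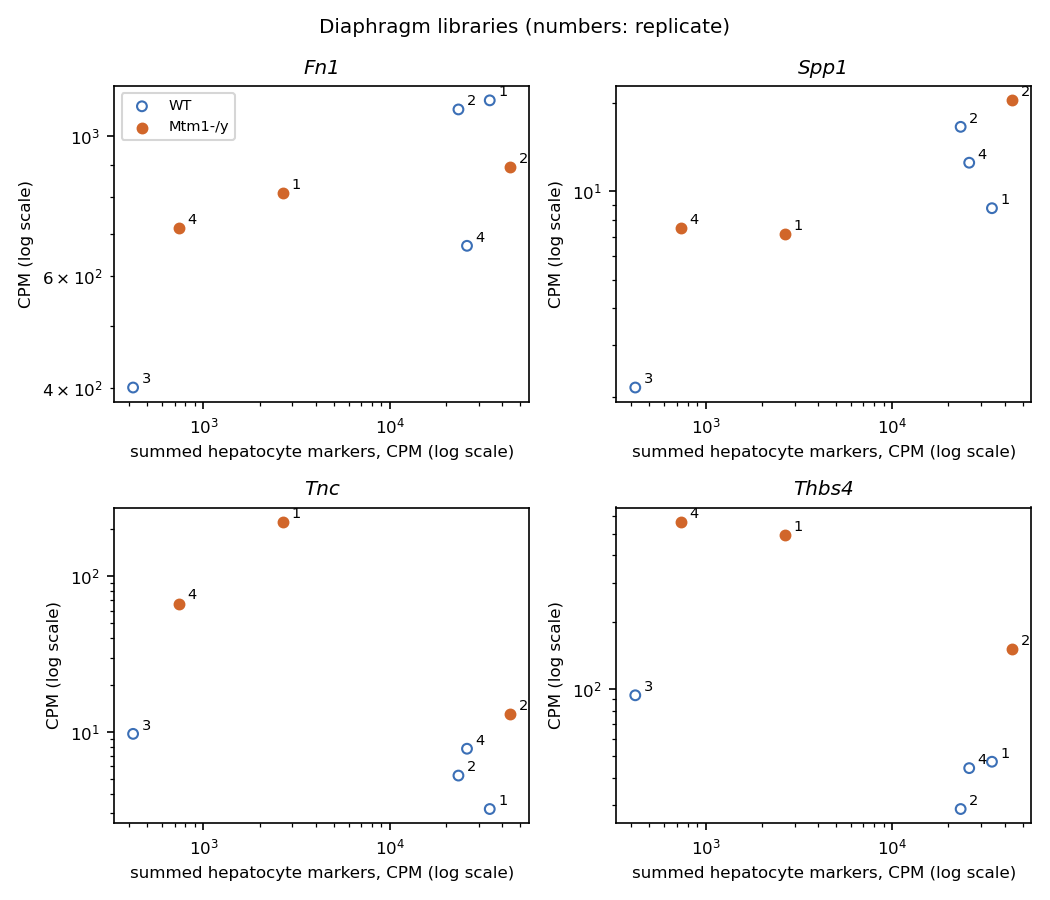
Level of Fn1, Spp1, Tnc and Thbs4 in CPM against the summed CPM of 8 hepatocyte markers in each diaphragm library, both on log scales, with replicate numbers. Spp1 is higher in the libraries with 23261 to 44074 CPM of markers than in those with 420 to 2657 CPM, and the Mtm1-/y library with 44074 CPM is the lowest of its group for Tnc and Thbs4.

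In heart no change of these genes passed the test. By edgeR 0 of 10 passed, 0 had an unadjusted p under 0.05 and DESeq2 called 0. Of 15238 genes 0.00656% passed by edgeR, 8.88% had an unadjusted p under 0.05 and 0.453% passed by DESeq2. The genotypes overlapped for all 10 genes, whereas 4.17% of all genes did not overlap. The fitted changes were negative for 8 of 10 genes, with a median log2 fold change of -0.28 against -0.0016 over all genes, Tnc (0.45) and Sparc (0.06) being the exceptions.

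Postn was 86.2, 45.3, 86.3 and 158 CPM in WT and 68.2, 40.3, 48.2 and 66.5 CPM in Mtm1-/y heart (fitted log2 change -0.76, SE 0.34, adjusted p = 0.55). Cilp was 8.77, 6.49, 9.20 and 7.74 CPM in WT and 5.26, 5.33, 7.02 and 9.20 CPM in Mtm1-/y (-0.27, SE 0.20, adjusted p = 0.59). Neither gene passed, and both fitted changes were negative. Comp was 8.71, 2.55, 9.37 and 35.4 CPM in WT and 1.90, 9.88, 2.77 and 0.549 CPM in Mtm1-/y (-1.91, SE 0.91, adjusted p = 0.55), the highest SE of the 10 genes in this tissue. Its fitted change was -0.88 without WT replicate 4 and -3.03 without Mtm1-/y replicate 2. Fn1 was 225, 117, 130 and 265 CPM in WT and 139, 131, 139 and 104 CPM in Mtm1-/y (-0.54, SE 0.26, adjusted p = 0.55).

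WT heart 4 was the highest library for Postn, Thbs2, Comp and Fn1. It also had the highest summed mesothelial markers, 317 CPM against 59.9 to 131 CPM in the other WT hearts and 37.3 to 154 CPM in Mtm1-/y hearts. Summed white adipocyte markers were lower in every Mtm1-/y heart, at 4.70 to 12.0 CPM against 29.9 to 111 CPM. All 8 fibroblast markers had negative fitted changes in heart, with a median of -0.50, and none passed. Their sum was 3621 CPM in WT heart 4, 1586 to 2469 CPM in the other WT hearts and 1652 to 1908 CPM in Mtm1-/y hearts. Their part in the heart values was not tested.

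In liver 8 of 10 genes passed the filter on low counts and 0 passed the test by edgeR or DESeq2, with 0 at an unadjusted p under 0.05. Among all 14305 genes 0% passed by edgeR, 4.24% had an unadjusted p under 0.05 and 0.135% passed by DESeq2. Postn was 9.23, 9.54 and 12.6 CPM in WT and 11.5, 8.38, 17.99 and 9.41 CPM in Mtm1-/y liver (fitted log2 change 0.17, SE 0.26, adjusted p = 0.97). Fn1 was 2309, 2515 and 2608 CPM in WT and 2532, 2276, 2204 and 2847 CPM in Mtm1-/y (-0.013, SE 0.13, adjusted p = 0.997), the smallest SE of these genes. Mtm1-/y replicate 3 was the highest library for Postn, Cilp, Tnc, Thbs2, Thbs4, Spp1, Sparc and Comp. Spp1 was 107 CPM there against 41.0 to 53.4 CPM in all other livers, and without it the fitted Spp1 change turned from 0.39 to -0.011. Thbs4 had 1, 1 and 0 counts in WT and 1, 9, 12 and 3 counts in Mtm1-/y, and Comp 3 counts in replicate 3 alone, too few for either to enter the test.

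The genotype effects were then compared between tissues for the 8 genes other than Postn and Cilp. Fn1 and Thbs1 changed more in gastrocnemius than in heart, with differences of log2 fold changes of 1.64 (SE 0.37, adjusted p = 0.0073) and 1.83 (SE 0.51, 0.021), as 19.8% of 16627 genes differed in either direction. Fn1 thus moved up in gastrocnemius while its fitted change in heart was negative. Spp1 narrowly missed (1.89, SE 0.67, adjusted p = 0.060). The number that passed turned on single libraries: without gastrocnemius WT 3, Tnc (1.86, adjusted p = 0.0083) and Thbs2 (1.34, 0.030) passed as well, and Spp1 passed by DESeq2 (0.031) or without gastrocnemius Mtm1-/y 3 (0.039), heart WT 2 (0.037) or heart Mtm1-/y 3 (0.036). Comp passed without heart Mtm1-/y 2 (3.44, adjusted p = 0.046). Thbs1 did not pass when all 30 libraries were fitted together (0.14).

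Between diaphragm and heart 0 of 8 genes passed by edgeR, where 0.00573% of 17466 genes did. Tnc (3.50, SE 0.90, adjusted p = 0.19) and Thbs4 (3.20, SE 0.78, 0.19) had the highest differences and passed by DESeq2 (0.0071 and 0.0054) and without diaphragm Mtm1-/y 2 (0.011 and 0.033). Without diaphragm Mtm1-/y 1 the difference of Tnc was 2.18 (adjusted p = 0.43). At an unadjusted p under 0.05 stood 5 of the 8, Tnc, Thbs1, Thbs2, Thbs4 and Comp, as did 10.6% of all genes. Between gastrocnemius and diaphragm 0 of 8 passed by edgeR or DESeq2, where 0.280% of 17509 genes did by edgeR, and Tnc (-2.28, SE 0.98), Thbs4 (-2.05, SE 0.73) and Fn1 (1.15, SE 0.45) had an unadjusted p under 0.05, as did 12.8% of all genes. The fitted changes of Tnc and Thbs4 were higher in diaphragm and those of Fn1 and Spp1 higher in gastrocnemius, but no such difference passed.

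**Figure D5:**
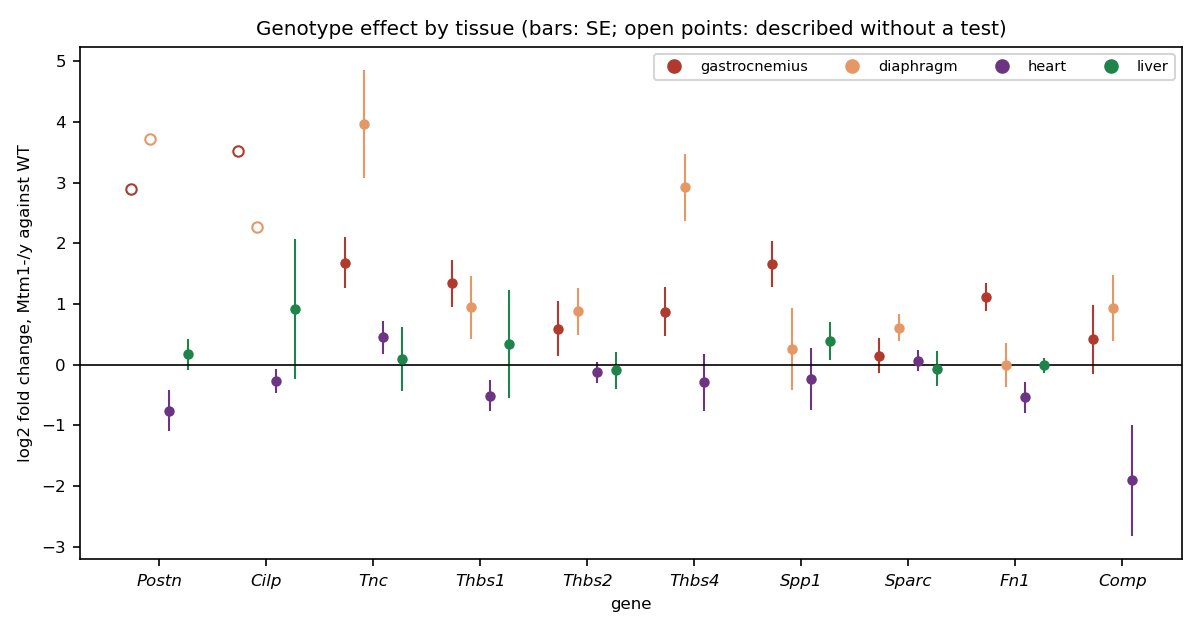
Fitted log2 fold change of each gene in Mtm1-/y against WT, by tissue, with SE bars. Open points are Postn and Cilp in gastrocnemius and diaphragm, described without a test, and genes too low to fit in liver have no point. Tnc and Thbs4 reach 3.97 and 2.92 in diaphragm, and the fitted changes in heart are negative for 8 of 10 genes.

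Other matricellular genes and the receptors of the family were described in gastrocnemius, both lists having been named with earlier results of these data known. Of 24 other matricellular genes 21 were tested, 7 rose (Ccn1, Ccn5, Thbs3, Fbln1, Fbln2, Smoc1 and Tgfbi) and 2 fell (Tnxb and Vtn), where 14.1% of all genes rose and 14.9% fell, with a median log2 fold change of 0.52 against 0.02 over all genes. Ccn1, an integrin ligand induced by growth factors and stretch, rose by 1.34 (SE 0.26, adjusted p = 0.0041) from 28.4 to 71.4 CPM. Smoc1, a relative of Sparc, rose by 1.15 (SE 0.28, adjusted p = 0.012), and Thbs3 by 0.68 (SE 0.15, 0.0075). Vtn, the gene of the plasma adhesion protein vitronectin, fell by 0.44 (SE 0.07, adjusted p = 0.0012) from 35.8 to 26.1 CPM.

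Of 16 receptors 16 were tested, 8 rose and 2 fell, against the same shares of all genes, with a median of 0.43. Itga9, an integrin subunit that binds tenascin and osteopontin, rose by 1.11 (SE 0.18, adjusted p = 0.0020) and its partner Itgb1 by 0.49 (SE 0.09, 0.0029). Itga4, an integrin subunit of leukocytes and myogenic cells that binds fibronectin, fell by 0.63 (SE 0.09, adjusted p = 0.0010), and Cacna2d1, a calcium channel subunit and receptor for thrombospondins, fell by 0.60 (SE 0.09, 0.0013). In diaphragm, heart and liver 0 genes of either list passed by edgeR. In diaphragm 6 of 21 other matricellular genes and 5 of 16 receptors had an unadjusted p under 0.05, as 10.8% of all genes had. DESeq2 called 3 (Ccn2, Ccn4 and Fbln7) and 2 (Itga5 and Itga9) there, named after their values were seen, where 1.70% of all genes rose. In heart 6 of 22 and 2 of 16 genes had an unadjusted p under 0.05 (8.88% of all genes), in liver 0 of 17 and 0 of 16 (4.24%), and DESeq2 called 0 in both tissues. In heart the median of the other matricellular genes was -0.70, with Smoc1 at -1.82 (SE 0.82, adjusted p = 0.55).

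The 5 genes whose group means most resembled Postn over the 8 groups of tissue and genotype were Timp1, Paqr8, Cx3cl1, Pimreg and Cthrc1, with Pearson r of log2 CPM from 0.974 to 0.991. Timp1, an inhibitor of matrix metalloproteinases, was 2.21 and 22.4 CPM in WT and Mtm1-/y gastrocnemius, 2.72 and 39.4 CPM in diaphragm, and 5.44 and 3.30 CPM in heart. For Cilp they were Esyt1, Eda2r, Fbxl2, Egr2 and Rab15, with r from 0.990 to 0.992. Eda2r, a receptor of the TNF receptor family, was 12.5 and 137 CPM in gastrocnemius, 13.9 and 62.8 CPM in diaphragm and 4.96 and 5.65 CPM in heart. These values describe 8 points that share their libraries and were picked as the highest of all genes.

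The annotation of mm10 placed Postn at chr3:54361109-54391037, Cilp at chr9:65265180-65280605, Tnc at chr4:63959785-64047015 and Thbs4 at chr13:92751590-92794818. Exons of Tnc share 176 bases with the antisense gene 8030451A03Rik, those of Fn1 292 bases with antisense Apol7d and those of Spp1 309 bases with Gm42793 on the same strand, so reads there may be split or left out. No exon overlap was annotated for the other 7 genes.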

How the data were processed

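Poly(A) RNA of 30 tissue samples was prepared with a strand-marking kit, and per the labels the authors used STAR 2.5.3a, HTSeq 0.6.1p1 and mm10 to make raw read counts per gene. The strand setting of counting was not given in the sources used here. The deposited counts were matched to samples by column name, 36103 genes entered and every library was used. The counts held no library numbered WT liver 4 or Mtm1-/y diaphragm 3. The 10 genes, the lists of other matricellular genes and receptors and the cell type markers were chosen with earlier results of these data known.

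Genotypes were compared within each tissue with edgeR 4.0.16 in R 4.3.3 (TMM, filterByExpr with a minimum count of 10, quasi-likelihood F test, Benjamini-Hochberg over all genes tested, adjusted p under 0.05). Differences between tissues used interaction contrasts and WT levels a fit of the 15 WT libraries. DESeq2 1.42.0, limma 3.58.1 (voom with sample weights), other scaling, filters, all-library fits, a replicate block and leaving out each library were alternatives. Scripts were tested on simulated counts. The labels do not say which libraries came from the same mouse, and p-values measure the spread between these libraries. Intervals and floors cover counting error only. Genes named beside the 10 were, from each list, up to 4 that passed in gastrocnemius and had the lowest p, and the 5 with the highest r for Postn and Cilp among genes of at least 1 CPM on average.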

Additional observations from a re-analysis of the deposited data

Results flagged for a closer look

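Among 60 groups of 4 libraries, 9 had 1 library far from the rest by Dixon's test, which chance gives in about 1 of 20 groups. Of these, 6 were WT gastrocnemius 3, at 67.7 CPM for Postn (others 27.7 to 33.8), 36.0 for Tnc (9.85 to 12.2), 56.7 for Thbs1 (17.8 to 21.4), 60.1 for Thbs2 (16.7 to 21.4), 2122 for Sparc (1115 to 1220) and 213 for Fn1 (110 to 123). The other 3 were Mtm1-/y liver 3, at 3.06 CPM for Cilp (others 0.0442 to 0.509), 107 for Spp1 (43.3 to 49.4) and 0.127 for Comp (0 in the others).

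The genotype effect differed between gastrocnemius and heart, by a test of the difference itself, for Thbs1 (difference of log2 fold changes 1.83, higher in gastrocnemius) and Fn1 (1.64, higher in gastrocnemius). These were 2 of 8 genes, where 19.8% of all 16627 genes differed in either direction. Thbs1 did not pass when edgeR fitted all 30 libraries together (adjusted p = 0.14).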

How the results depend on the processing

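In gastrocnemius 2 (without WT replicate 2) to 6 (without WT replicate 3) of the 8 genes passed when each library was left out. In diaphragm 2 passed by DESeq2, 2 by edgeR on all libraries and 2 by DESeq2 on all libraries, Tnc and Thbs4 each time, and 0 to 2 when each library was left out. For gastrocnemius minus heart 1 passed by edgeR on all libraries, 1 (Thbs1) without genes at least 10 times higher in WT liver than in WT gastrocnemius, which removed Fn1, and 2 to 4 when each library was left out. For diaphragm minus heart 2 passed by DESeq2 and 0 to 2 when each library was left out. In heart and liver 0 passed under every alternative run, and of 30 neighbouring WT pairs 15 to 20 passed when each library was left out. The cause of these differences was not tested.

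The fitted log2 changes that turned sign had not passed in the main fit. Fn1 in diaphragm was 0.00323 without a filter, Spp1 in diaphragm -0.44 by limma voom and Cilp in liver -0.25 by limma voom. WT and Mtm1-/y libraries of one tissue with the same number had deviations correlated from -0.64 to 0.46, with no common sign, so the numbers were not used as pairs. Whether equal numbers in different tissues mark the same mouse was not checked, and the tests between tissues treat libraries as independent. With the replicate block 4, 0, 0 and 0 genes passed in gastrocnemius, diaphragm, heart and liver, 3 for gastrocnemius minus heart (Tnc also, 1.43, adjusted p = 0.019) and 0 for both other differences, while Spp1 in diaphragm was -0.21 and, in liver, Tnc was -0.051 and Thbs1 -0.83.

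With each library left out in turn, the ranges that crossed 0 were as follows. In gastrocnemius Sparc ran from -0.14 to 0.42 and Comp from -0.27 to 1.09. In diaphragm Spp1 ran from -0.43 to 0.61 and Fn1 from -0.22 to 0.19. In heart Spp1 ran from -0.67 to 0.053 and Sparc from -0.044 to 0.20. In liver Postn ran from -0.090 to 0.32, Cilp from -1.19 to 1.32, Tnc from -0.56 to 0.37, Thbs1 from -0.11 to 0.75, Thbs2 from -0.28 to 0.10, Spp1 from -0.011 to 0.53, Sparc from -0.23 to 0.16 and Fn1 from -0.072 to 0.044. Of the differences, gastrocnemius minus heart ran from -0.23 to 0.33 for Sparc and diaphragm minus heart from -0.21 to 0.92 for Spp1. Gastrocnemius minus diaphragm ran from -0.67 to 0.37 for Thbs2, -1.21 to 0.15 for Comp and -0.025 to 1.03 for Thbs1. WT gastrocnemius against heart ran from -0.19 to 0.58 for Thbs1, WT gastrocnemius against diaphragm from -0.10 to 0.74 for Thbs2 and WT diaphragm against gastrocnemius from -0.015 to 0.51 for Postn.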
